A study of Rattus norvegicus with 6 samples.

Results

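The enzymes of fatty acid degradation were followed in transplanted rat hearts from young and from aged donors. The set was every gene that the deposited gene expression table assigns to the KEGG pathway ko00071, and it held 44 of the 22250 genes of the table. Wild-type Sprague-Dawley rats gave the hearts, and all hearts had undergone heterotopic transplantation into young recipients after cold storage, so no untransplanted heart serves as a baseline. Left ventricular myocardium was taken on postoperative day 1 from 3 hearts of young donors of 10 weeks (animals 3, 13 and 15) and 3 hearts of aged donors of 1 year (animals 3, 4 and 7). Animals were numbered separately in the donor groups, and the number 3 names a different rat in each. In every list of values below, the young hearts come in the order 3, 13, 15 and the aged hearts in the order 3, 4, 7.

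Long-chain fatty acids are the main fuel of the adult heart. They are activated to acyl-CoA by acyl-CoA synthetases, carried into mitochondria as acylcarnitines by the carnitine palmitoyltransferases, and shortened there by repeated rounds of dehydrogenation, hydration, a further dehydrogenation and thiolysis that release acetyl-CoA for the citrate cycle. Peroxisomes run a related pathway for very long and branched chains, and alcohol, aldehyde and omega-oxidizing enzymes complete the KEGG map.

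Promoter sequence was available in RefSeq (build GRCr8) for 35 of the 44 members. The window was the 250 bases before the annotated start. It is shown for 5 members on which the results turn: the heart's main acyl-CoA synthetase, the synthetase that moved the other way, the inner-membrane carnitine palmitoyltransferase, the medium-chain acyl-CoA dehydrogenase and the alpha subunit of the mitochondrial trifunctional protein. Each is written 5′ to 3′ on the strand of its gene. The windows lie at chr16:52532393-52532642 (minus strand, Acsl1), chrX:110803262-110803511 (minus strand, Acsl4), chr5:127910819-127911068 (minus strand, Cpt2), chr2:245542865-245543114 (minus strand, Acadm) and chr6:31907551-31907800 (plus strand, Hadha). Capitals mark the GC box GGGCGG on either strand, written as its complement where it lies on the other strand, and in Acadm the cyclic AMP response element TGACGTCA.
Acsl1: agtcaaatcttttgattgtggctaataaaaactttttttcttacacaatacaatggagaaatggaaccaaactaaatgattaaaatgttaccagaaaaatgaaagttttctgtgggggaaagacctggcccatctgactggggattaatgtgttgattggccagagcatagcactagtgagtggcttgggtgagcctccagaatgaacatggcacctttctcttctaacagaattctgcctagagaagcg
Acsl4: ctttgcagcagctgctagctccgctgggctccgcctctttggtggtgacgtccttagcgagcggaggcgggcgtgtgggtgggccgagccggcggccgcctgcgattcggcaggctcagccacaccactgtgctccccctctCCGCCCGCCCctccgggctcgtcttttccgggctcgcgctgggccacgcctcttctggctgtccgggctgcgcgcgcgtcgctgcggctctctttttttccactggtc
Cpt2: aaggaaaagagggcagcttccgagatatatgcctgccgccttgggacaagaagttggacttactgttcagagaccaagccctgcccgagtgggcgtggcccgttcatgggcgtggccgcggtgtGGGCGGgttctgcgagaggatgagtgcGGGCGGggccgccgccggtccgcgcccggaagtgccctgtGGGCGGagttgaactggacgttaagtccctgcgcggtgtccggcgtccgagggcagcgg
Acadm: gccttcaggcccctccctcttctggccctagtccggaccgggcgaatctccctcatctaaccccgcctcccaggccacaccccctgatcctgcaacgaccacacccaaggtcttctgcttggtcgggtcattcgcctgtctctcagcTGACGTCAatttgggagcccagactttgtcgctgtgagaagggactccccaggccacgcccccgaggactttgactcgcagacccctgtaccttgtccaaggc
Hadha: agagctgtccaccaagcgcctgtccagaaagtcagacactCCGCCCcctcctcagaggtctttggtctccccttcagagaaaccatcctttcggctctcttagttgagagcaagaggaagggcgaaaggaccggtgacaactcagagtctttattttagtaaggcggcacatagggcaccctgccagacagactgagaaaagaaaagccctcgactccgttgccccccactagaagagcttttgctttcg

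The capitals in Cpt2 are 3 GC boxes, those in Acsl4 are a pair that overlap, and Acsl1 holds none of the motifs searched. Hadha and Hadhb, which encode the alpha and beta subunits of the trifunctional protein, start head to head with 300 bases between their RefSeq starts, so that their windows share 200 bases and the GC box printed for Hadha is also in the window of Hadhb. In the deposited table (build Rnor_6.0), by contrast, 6661 bases lie between the 2 genes, so the shared window rests on the RefSeq annotation of GRCr8. The GC box was found in 22 of the 35 member windows (62.9%), against 55.6% of the 11603 windows of tested genes and 30.5% of all 33469 windows. It was held by 13 of the 17 windows of members that were lower in aged donor hearts and by the window of Acsl4. The nuclear receptor core motif AGGTCA was in 7 of 35 windows (20%), against 11% of tested genes and 14.1% of all. The longer form TCAAGGTCA, which contains it and is the element of the estrogen-related receptors, was in 0 of 35 member windows and 0.293% of tested genes. A direct repeat of AGGTCA with 1 base between the copies was in 0 member windows and 0.0431% of tested genes, the E-box CACGTG in 0 and 7.8%, and TGACGTCA in 1 and 2.74%. All motifs were read on both strands. A match only says that these letters are in the window.

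The libraries were similar in depth, with 21457509 to 22277905 reads counted on genes in young and 22508040 to 24560869 in aged donor hearts, but 2 hearts stood apart. Cardiomyocyte markers (11 genes of the sarcomere and of calcium handling) summed to 79360, 88677 and 12742 CPM (read counts scaled to library size with edgeR's TMM factors) in young and to 156, 7284 and 6876 CPM in aged donor hearts. Aged animal 3, labelled as left ventricular myocardium, thus held the defining markers of heart muscle at very low levels, for example alpha-myosin heavy chain Myh6 at 13.6 CPM. Young animal 15 lay nearer to aged animals 4 and 7 than to the other young hearts. Neutrophil markers (12 genes, 8 of 11 tested past the limits given below, all higher) summed to 27.8, 28.2 and 291 CPM in young and 1773, 603 and 973 CPM in aged donor hearts, and macrophage markers (9 genes, 5 higher) ranged from 288 to 946 CPM and from 977 to 2340 CPM. In bulk tissue, fewer cells of a type and less RNA per cell cannot be told apart. Hepatocyte markers, of a cell type that also degrades fatty acids, summed to 3.76 to 19.1 CPM in young and 0.328 to 5.21 CPM in aged donor hearts, with Alb and Fga at 0 in every heart. Most of the sum was Ttr, except in aged animal 3. Ttr was the only hepatocyte marker tested and passed in neither direction (log2 fold change -2.04), so the sum says little about hepatocytes. The adipocyte list summed to 256 to 656 CPM in young and 124 to 321 CPM in aged donor hearts, nearly all of it Fabp4, which endothelial cells express as well, while Adipoq was at 0 in every heart. T cell markers summed to 6.68 to 61.5 CPM in young and 74.9 to 115 CPM in aged donor hearts. Most of the sum was Cd8a in the aged hearts (99.0, 88.3 and 63.8 CPM) and in young animal 15 (55.8 CPM). Of the 5 T cell markers tested, 2 (Cd2 and Lck) were higher by the limits given below. Cd8a, Cd3e and Cd3g, with log2 fold changes of 2.08, 0.53 and -0.37, passed in neither direction. Endothelial markers summed to 1153 to 1674 CPM in young and 927 to 1420 CPM in aged donor hearts. Fibroblast markers summed to 6253 to 7810 CPM in young and 2020 to 4146 CPM in aged donor hearts. Most of the sum was Col1a1 and Col3a1 in every heart. Of the 6 fibroblast markers tested, these 2 were lower by the limits given below, with log2 fold changes of -1.61 and -1.32. The other 4 passed in neither direction, and 1 of them, Pdgfra, had a positive log2 fold change (0.81). The sum thus follows Col1a1 and Col3a1 and says little about the list as a whole. Red blood cell markers summed to 956, 1138 and 131 CPM in young and to 607, 49.4 and 216 CPM in aged donor hearts. The part of cell makeup in the values below was not tested, beyond the fits described at the end.

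Fatty acid degradation genes were mostly lower in aged donor hearts. Of the 44 members, 35 had enough reads to be tested, 22 of these fell, 1 rose (Acsl4, a synthetase that prefers arachidonic acid), and 12 passed the limits in neither direction. The limits were those of the study, namely an aged-to-young ratio over 1.5 or under 0.67 together with p under 0.05 before adjustment, here from edgeR's quasi-likelihood test, and a gene that met them is said to have a call. Among all 13784 tested genes, 19.0% were lower and 13.2% higher by the same limits. The median log2 fold change (aged over young) was -1.75 over the tested members and 0.02 over all tested genes. All 3 aged hearts lay below all 3 young hearts in 15 tested members and above them in 1, while the groups overlapped in 19. Over all tested genes, 20.6% were non-overlapping and lower and 21.0% non-overlapping and higher. After Benjamini-Hochberg adjustment over all tested genes, edgeR gave 0 members, and 0.0% of all tested genes, an adjusted p under 0.05, against 23 members with an unadjusted p under 0.05. The adjusted p-values of the 23 members past the limits lay between 0.0916 and 0.137. At an adjusted p under 0.1 with the same fold limits, edgeR gave 13 members lower and 0 higher, against 12.2% and 6.49% of all tested genes. DESeq2 gave 22 members (21 lower, 1 higher) an adjusted p under 0.05, against 16.4% of all tested genes lower and 9.7% higher. By limma-voom with quality weights, 27 members (25 lower, 2 higher) had an adjusted p under 0.05, but so did 30.2% of all tested genes on the lower and 30.8% on the higher side.

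**Figure D1:**
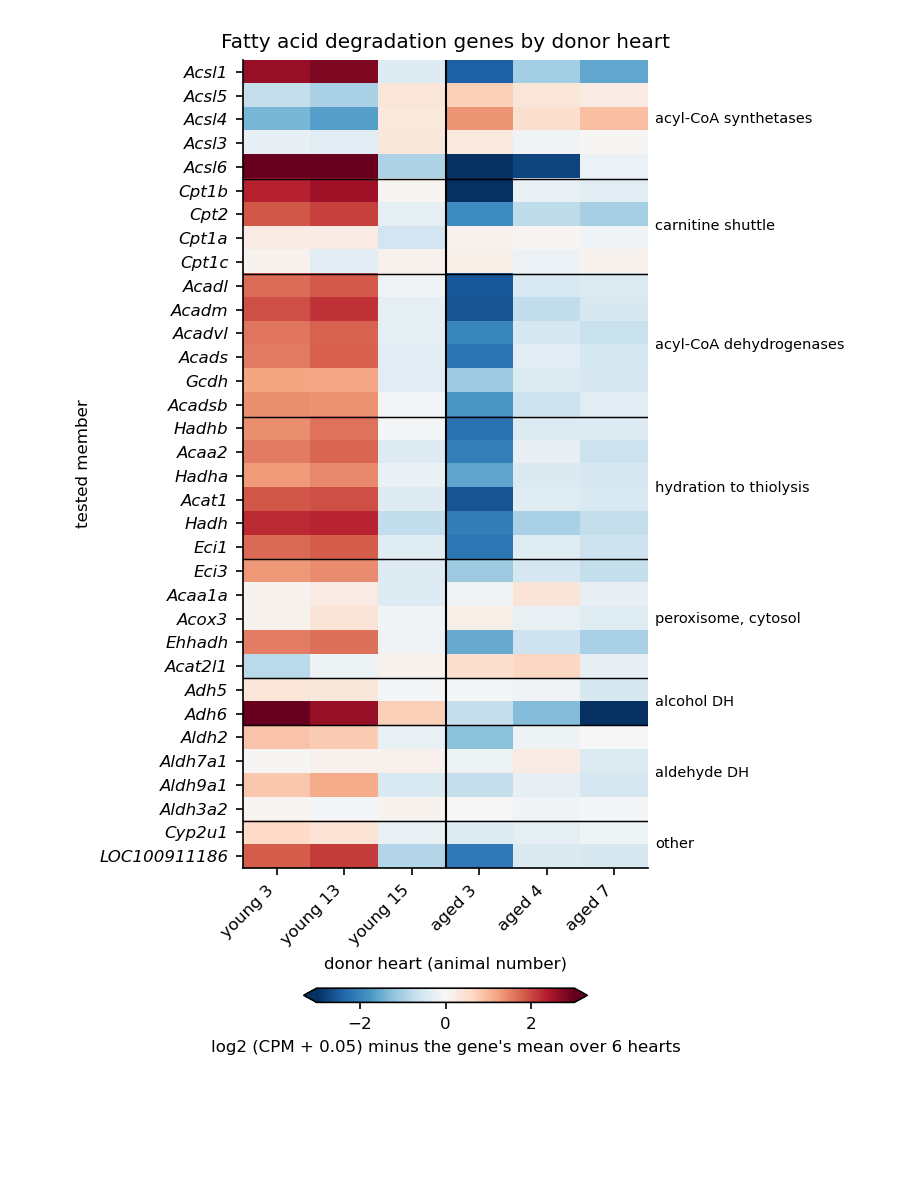
Expression of 34 of the 35 tested fatty acid degradation genes in each heart, as log2 (CPM + 0.05) minus the gene's mean over the 6 hearts, with rows grouped by role and the vertical line separating 3 young from 3 aged hearts. Young animals 3 and 13 are high in most rows, aged animal 3 is the lowest of the 6 hearts in 20 of the 22 members that were lower, and young animal 15 looks like aged animals 4 and 7 in many rows.

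As the map of expression by heart shows, the order of the hearts was much the same from gene to gene. Aged animal 3 was the lowest of 6 hearts in 20 of the 22 members that fell, and young animal 15 was the lowest young heart in all 22. In 27 of the 35 tested members, young animal 15 lay between the mean of the other young hearts and the mean of the aged hearts. The 22 members were picked for being lower, and these counts were not made over all tested genes. Whether this order of hearts is particular to the members was therefore not tested. The members together took 1.07, 1.14 and 0.447% of all counted reads in young and 0.227, 0.417 and 0.409% in aged donors. Every aged heart was thus below every young heart, but young animal 15 exceeded aged animal 4 by little.

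**Figure D2:**
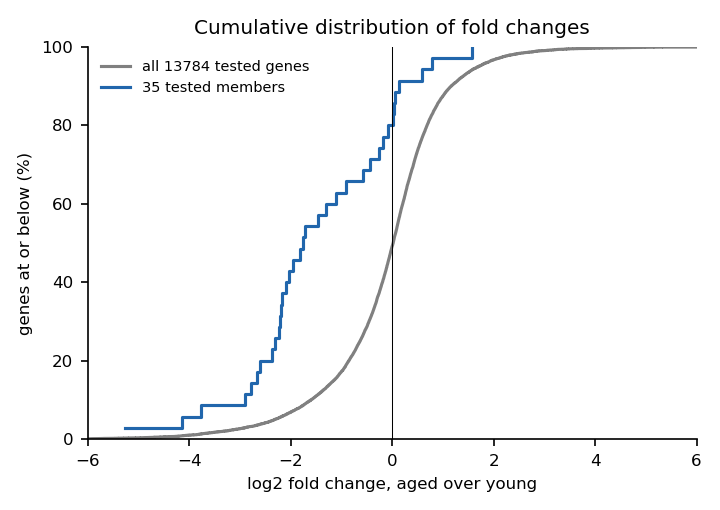
Cumulative share of genes (%) at or below each log2 fold change, aged over young, for the 35 tested members (blue) and all 13784 tested genes (grey). The member curve lies to the left, with its median at -1.75 against 0.02.

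The decrease was not shared evenly among roles. Of the 16 members of the carnitine shuttle and the mitochondrial steps, all tested, 14 fell and 0 rose, with a median log2 fold change of -2.14. Of all tested genes, 19.0% were lower and 13.2% higher. The other 28 members, of which 19 were tested, gave 8 lower and 1 higher, with a median of -0.57. They include mitochondrial enzymes such as Aldh2 and the enoyl-CoA hydratase LOC100911186, which stood in no role list. Reads on the 16 genes summed to 10514, 11848 and 2942 CPM in young and to 909, 2573 and 2472 CPM in aged donor hearts, or 8435 ± 4803 against 1985 ± 933 CPM (SD, n = 3 each). These sums did not overlap, though young animal 15 stood only slightly above aged animals 4 and 7.

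**Figure D3:**
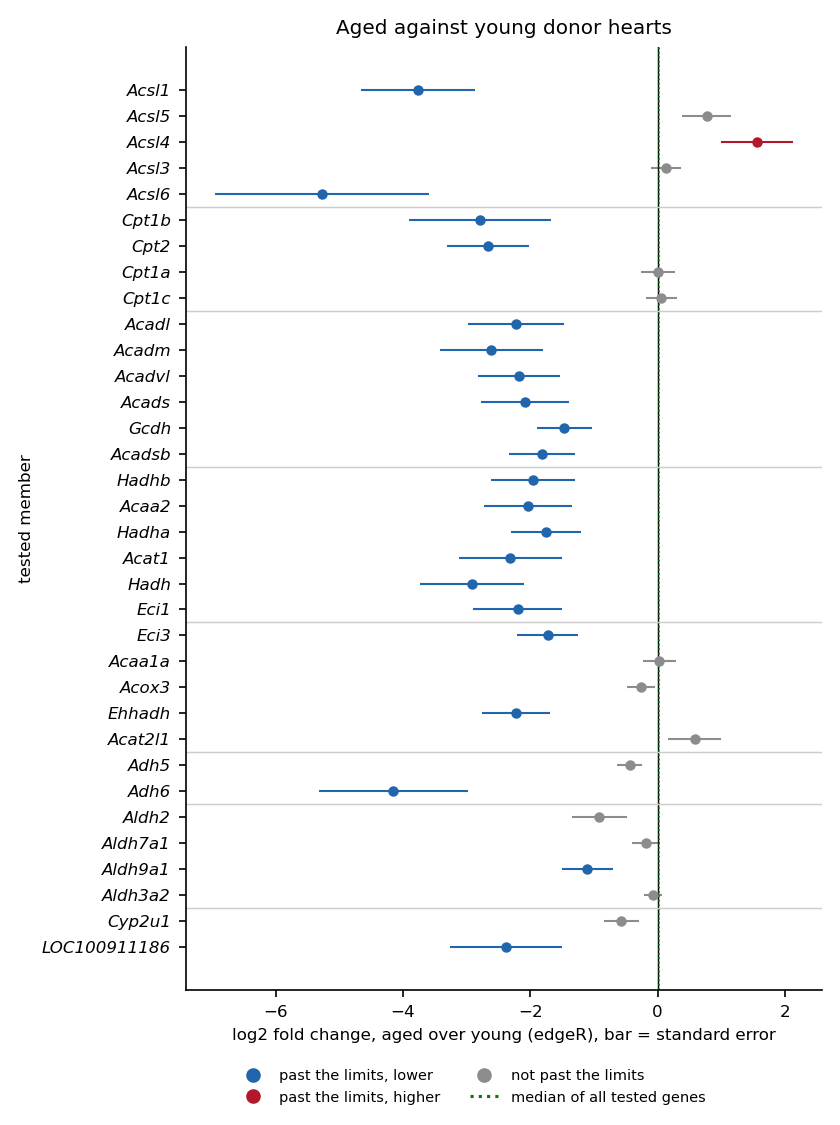
Log2 fold change, aged over young, of 34 of the 35 tested members with its standard error from edgeR, grouped by role as in the map of expression by heart. Blue points passed the limits and were lower, the red point (Acsl4, 1.56) passed them and was higher, grey points did not pass, and the dotted line is the median of all tested genes (0.02).

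Long-chain acyl-CoA synthetases, which trap and activate fatty acids, moved in both directions. Acsl1, the main form of heart muscle (Ensembl ENSRNOG00000010633, chromosome 16, 48937456 to 49003246, minus strand, build Rnor_6.0), was at 1587, 1808 and 198 CPM in young and 47.5, 129 and 88.1 CPM in aged donor hearts. All aged hearts lay below all young hearts, and young animal 15 was closer to the aged hearts than to its own group. Acsl1 fell by 3.76 on the log2 scale (standard error 0.892, 13.6-fold, edgeR Benjamini-Hochberg adjusted p = 0.0916), the steepest fall among the 20 members with the highest mean FPKM. Acsl4 (ENSRNOG00000019180, chromosome X, 113596239 to 113659944, minus strand), known for feeding polyunsaturated fatty acids into membrane lipids and for its role in ferroptosis, was at 16.9, 14.1 and 54.5 CPM in young and 110, 61.7 and 81.6 CPM in aged donor hearts. The groups did not overlap, and young animal 15 was again the young heart nearest to the aged ones. Its log2 fold change was 1.56 (standard error 0.565, 2.95-fold higher, adjusted p = 0.117), and the call was lost without young animal 3 (1.3), young animal 13 (1.24), aged animal 3 (1.33) or aged animal 7 (1.59). Without young animal 15 the log2 fold change was 2.48.

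Acsl5, a form of the endoplasmic reticulum and mitochondrial outer membrane, was at 44.3, 36.9 and 93.5 CPM in young and 120, 93.1 and 85.6 CPM in aged donor hearts. The groups overlapped through young animal 15, and the log2 fold change of 0.77 (standard error 0.383) did not pass the limits with all hearts but did without young animal 15 (1.33). Acsl6, a form known from brain and red cell precursors, was at 37.7, 43.7 and 1.07 CPM in young and 0.0328, 0.265 and 1.84 CPM in aged donor hearts. The aged values stand for 1, 7 and 48 reads. That of aged animal 3 is below the 3 reads (0.0985 CPM in that heart) taken here as the counting floor. The difference rested on young animals 3 and 13, since young animal 15 was below aged animal 7. Acsl6 fell by 5.27 on the log2 scale (standard error 1.68), and the call was lost without aged animal 4 (-4.87). Its size rested on single hearts, since it was -7.51 without aged animal 7 and -4.69 without aged animal 3. Red blood cell markers were highest in young animals 3 and 13 as well, with the sums given above, and so were cardiomyocyte markers. Aged animal 3, however, had 607 CPM of red blood cell markers and 1 read of Acsl6. A link of Acsl6 to either cell type was not tested. Acsl3, the form of lipid droplets, had a log2 fold change of 0.13.

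The makeup of the synthetases within a heart does not depend on how libraries are scaled. Acsl1 made up 91.6, 93.1 and 44.2% of the summed FPKM of the 5 Acsl genes (reads scaled by gene length and by the library's counted reads) in young and 12.4, 34.8 and 26.0% in aged donors, or 76.3 ± 27.8 against 24.4 ± 11.3% (SD, n = 3 each). The shares did not overlap, and the exact permutation test over hearts gave p = 0.1, two-sided, the smallest value that 3 against 3 hearts can give. Acsl5 took 4.19, 3.11 and 34.1% in young and 51.1, 41.1 and 41.4% in aged donors, and Acsl4 took 0.793, 0.587 and 9.84% and 23.2, 13.5 and 19.6%. In every aged heart Acsl5 thus had a higher FPKM than Acsl1, whereas in every young heart Acsl1 was higher.

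**Figure D4:**
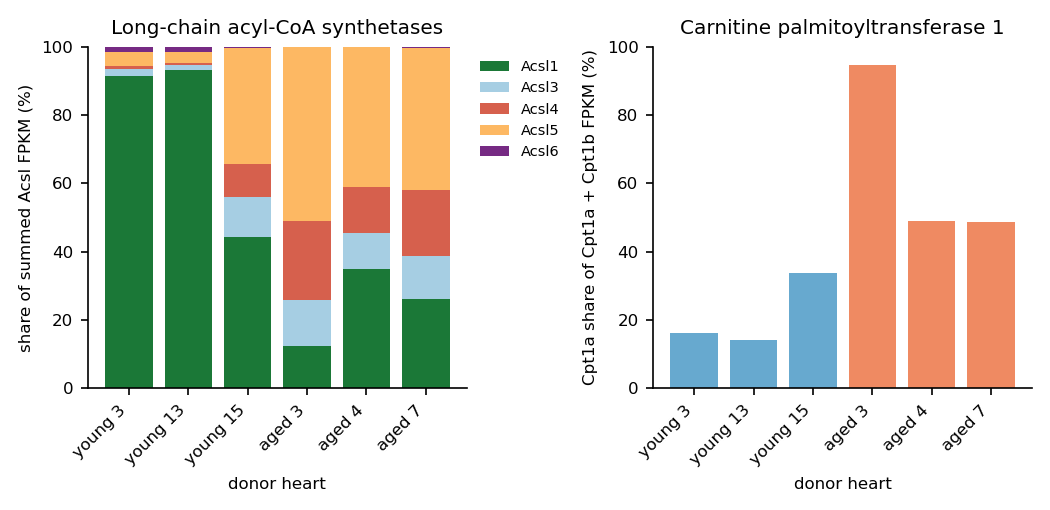
Left, share of the summed FPKM of 5 long-chain acyl-CoA synthetase genes (%) in each heart. Right, Cpt1a as a share of Cpt1a plus Cpt1b FPKM (%) in each heart, blue for young and orange for aged: Acsl1 is at 91.6, 93.1 and 44.2% in young animals 3, 13 and 15 and at 12.4 to 34.8% in aged donors, and Cpt1a is at 14.1 to 33.7% in young and 48.7 to 94.9% in aged donors.

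In the carnitine shuttle, the muscle form of the outer-membrane transferase and the inner-membrane transferase fell, and the liver form did not pass the limits. Cpt1b, the muscle form and the entry point of long-chain acyl groups into heart mitochondria (ENSRNOG00000010438, chromosome 7, 130395194 to 130405347, minus strand), was at 840, 992 and 180 CPM in young and 8.08, 147 and 135 CPM in aged donor hearts. The groups did not overlap, but young animal 15 and aged animals 4 and 7 were close to each other. Cpt1b fell by 2.79 on the log2 scale (standard error 1.12, adjusted p = 0.137), and the call was lost without young animal 3 (-2.60), young animal 13 (-2.40), aged animal 4 (-3.22) or aged animal 7 (-3.10). Cpt2, which returns the acyl group to CoA inside the mitochondrion, was at 280, 323 and 64.3 CPM in young and 21, 46.0 and 38.5 CPM in aged donor hearts. It fell by 2.66 on the log2 scale (standard error 0.646, adjusted p = 0.0916) and passed the limits whichever heart was left out.

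Cpt1a, the liver form (ENSRNOG00000014254, chromosome 1, 218569510 to 218629678, plus strand), was at 186, 186 and 104 CPM in young and 170, 162 and 147 CPM in aged donor hearts. The groups overlapped, and the log2 fold change was 0.01 with a standard error of 0.272. Cpt1c, a brain form with little known part in oxidation, had a log2 fold change of 0.06. Cpt1a as a share of Cpt1a plus Cpt1b FPKM was 16.2, 14.1 and 33.7% in young and 94.9, 49.1 and 48.7% in aged donors, or 21.3 ± 10.7 against 64.2 ± 26.5% (SD, n = 3 each, exact permutation test, two-sided p = 0.1, the smallest possible). The shares did not overlap. In all, 3 shares or ratios were tested in this way, and the Benjamini-Hochberg adjusted p was 0.1 for each. The ratio of Cpt1b to Cpt2 FPKM was 1.90, 1.95 and 1.77 in young donors and 0.244, 2.03 and 2.23 in aged donors. Aged animal 3 therefore stood apart also in the balance between the 2 transferases, while aged animals 4 and 7 were slightly above the young hearts.

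Acyl-CoA dehydrogenases, the flavoproteins of the first oxidation step, fell in 6 of 6 cases, and in all 6 the groups did not overlap. Among all tested genes, 19.0% were lower by the limits and 20.6% were non-overlapping and lower. Acadl, the long-chain enzyme and by mean FPKM (398 over the 6 hearts) the most abundant member (ENSRNOG00000012966, chromosome 9, 73833388 to 73871888, minus strand), was at 1390, 1572 and 407 CPM in young and 74.5, 316 and 331 CPM in aged donor hearts. Acadm, the medium-chain enzyme, was at 1051, 1237 and 228 CPM in young and 45.8, 167 and 199 CPM in aged donor hearts. Acadvl, which takes the longest chains at the inner membrane, was at 819, 906 and 222 CPM in young and 69.0, 192 and 168 CPM in aged donor hearts. In all 3 enzymes aged animal 3 was far below the other hearts and young animal 15 lay above aged animals 4 and 7. Their log2 fold changes were -2.22, -2.61 and -2.18, with standard errors of 0.747, 0.806 and 0.644 and edgeR Benjamini-Hochberg adjusted p-values of 0.106, 0.0975 and 0.0939.

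Acads, the short-chain enzyme, was at 436, 511 and 119 CPM in young and 32.3, 117 and 101 CPM in aged donor hearts. The 117 CPM of aged animal 4 and the 119 CPM of young animal 15 were nearly the same, and the log2 fold change was -2.09 (standard error 0.692). Gcdh, the glutaryl-CoA dehydrogenase of lysine and tryptophan breakdown, was at 124, 121 and 43.2 CPM in young and 25.4, 40.9 and 38.1 CPM in aged donor hearts. Acadsb, which acts on short branched chains from isoleucine, was at 45.6, 44.6 and 16.9 CPM in young and 5.12, 11.1 and 14.1 CPM in aged donor hearts. Gcdh and Acadsb, whose usual substrates come from amino acids, had log2 fold changes of -1.46 and -1.82 (standard errors 0.436 and 0.519). The calls of Acads and Acadl were lost without young animal 3 (-1.92 and -2.04) or young animal 13 (-1.73 and -1.90), while those of Acadm, Acadvl, Gcdh and Acadsb held in all 6 fits that left out 1 heart.

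The balance among the 4 straight-chain dehydrogenases was similar from heart to heart. Acadl made up 45, 44.5 and 49.3% of their summed FPKM in young and 41.0, 47.4 and 48.9% in aged donors, with overlap between the groups. Acadm made up 25.5, 26.3 and 20.7% in young and 18.9, 18.8 and 22.0% in aged donors, and Acadvl 16.7 to 25.5% over all hearts. The share of Acads was 11.7, 12.0 and 12.0% in young and 14.7, 14.5 and 12.4% in aged donors, slightly higher in every aged heart. The highest Acadvl share and the lowest Acadl share were both in aged animal 3.

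The enzymes from hydration to thiolysis also fell in 6 of 6 cases (19.0% of all tested genes), but the groups were non-overlapping only for the trifunctional protein. Hadhb, its thiolase subunit (ENSRNOG00000010800, chromosome 6, 27555412 to 27582995, minus strand), was at 1510, 1773 and 559 CPM in young and 121, 431 and 439 CPM in aged donor hearts. Hadha, its hydratase and dehydrogenase subunit (ENSRNOG00000024629, chromosome 6, 27589657 to 27629175, plus strand), was at 1242, 1397 and 445 CPM in young and 172, 380 and 364 CPM in aged donor hearts. The 2 neighbouring genes, whose promoter windows overlap in RefSeq (GRCr8) but not by these coordinates, had the same order of groups. Their log2 fold changes were -1.96 (standard error 0.660) and -1.75 (standard error 0.547). The ratio of Hadha to Hadhb FPKM was 0.544, 0.521 and 0.526 in young donors and 0.936, 0.582 and 0.548 in aged donors. The ratio was thus much the same in 5 hearts and higher in aged animal 3.

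Hadh, the dehydrogenase of medium and short hydroxyacyl chains, was at 566, 580 and 71.4 CPM in young and 28.4, 60.5 and 72.7 CPM in aged donor hearts. It fell by 2.91 on the log2 scale (standard error 0.821, 7.53-fold), although young animal 15 lay below aged animal 7. Acaa2, the mitochondrial thiolase, was at 878, 1001 and 229 CPM in young and 71.9, 251 and 191 CPM in aged donor hearts. Acat1, which also serves ketone body and isoleucine metabolism, was at 929, 974 and 195 CPM in young and 42.0, 196 and 184 CPM in aged donor hearts. In both thiolases, young animal 15 was slightly below aged animal 4. Eci1, the isomerase for unsaturated chains, was at 210, 225 and 49.8 CPM in young and 14.3, 49.9 and 41.5 CPM in aged donor hearts, so that young animal 15 and aged animal 4 were level. The log2 fold changes were -2.04 for Acaa2, -2.31 for Acat1 and -2.20 for Eci1, with standard errors of 0.693, 0.809 and 0.697. Hadhb lost its call without young animal 3 (-1.82) or young animal 13 (-1.65). Acaa2 lost it without young animal 3 (-1.84), young animal 13 (-1.69), aged animal 3 (-1.66) or aged animal 7 (-2.11). Acat1 kept it only with all hearts or without young animal 15, and its log2 fold change was -2.05, -2.0, -1.87, -2.62 and -2.54 without young animal 3, young animal 13, aged animal 3, aged animal 4 and aged animal 7. Hadha, Hadh and Eci1 held in all 6 fits.

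Peroxisomal and cytosolic members were divided between lower values and values not past the limits. Eci3, listed as a peroxisomal enoyl-CoA isomerase, was at 305, 330 and 95.5 CPM in young and 57.9, 86.7 and 75.8 CPM in aged donor hearts and fell by 1.73 (standard error 0.484). Its row carries the gene identifier that RefSeq gives to Eci2, so which of the isomerases was counted is uncertain. Ehhadh, the bifunctional enzyme of peroxisomes, was at 14.2, 15.5 and 4.54 CPM in young and 1.67, 3.15 and 2.45 CPM in aged donor hearts. The groups did not overlap, and it fell by 2.23 (standard error 0.529, adjusted p = 0.0916). Acaa1a (peroxisomal thiolase), Acox3 (oxidase of branched chains) and Acat2l1 (a cytosolic thiolase) had log2 fold changes of 0.03, -0.26 and 0.58 and did not pass the limits.

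Alcohol and aldehyde dehydrogenases mostly did not pass the limits. Aldh2, the mitochondrial enzyme that clears acetaldehyde and lipid aldehydes, was at 492, 463 and 236 CPM in young and 115, 247 and 270 CPM in aged donor hearts. The groups overlapped, and its log2 fold change of -0.91 (standard error 0.437) did not pass with all hearts but did without young animal 15 (-1.14). Aldh7a1, of lysine breakdown, was at 91.4, 97.5 and 97.3 CPM in young and 79.8, 106 and 66.3 CPM in aged donor hearts (log2 fold change -0.19), with overlap. Aldh9a1, which also acts in carnitine synthesis, was at 97.5, 121 and 40.8 CPM in young and 34.3, 47.0 and 39.1 CPM in aged donor hearts. It fell by 1.11 on the log2 scale (standard error 0.402), with young animal 15 inside the aged range, and kept its call only with all hearts or without young animal 15 (-1.01, -0.78, -1.0, -1.23 and -1.08 without young animal 3, young animal 13, aged animal 3, aged animal 4 and aged animal 7). Adh6 was at 11.9, 7.57 and 1.98 CPM in young and 0.723, 0.455 and 0 CPM in aged donor hearts and fell by 4.15 (standard error 1.2). Its size varied with the fit, from -3.57 without young animal 3 to -4.93 without aged animal 3, and was -6.68 by limma-voom. Adh5 and Aldh3a2, the latter an enzyme of fatty aldehydes, had log2 fold changes of -0.44 and -0.08. The row named Adh5 carries the gene identifier of Adh4 in RefSeq and is uncertain for that reason.

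A pair of tested members stood in no role list. Cyp2u1, which hydroxylates long-chain fatty acids, had a log2 fold change of -0.57, which did not pass with all hearts and did without young animal 15 (-0.73). LOC100911186, described in the table as a mitochondrial enoyl-CoA hydratase and carrying the gene identifier of Echs1 in RefSeq, was at 4.30, 5.28 and 0.620 CPM in young and 0.230, 0.872 and 0.843 CPM in aged donor hearts. It fell by 2.38 (standard error 0.883), with overlap through young animal 15, and kept its call only with all hearts or without young animal 15 (-2.17, -1.91, -1.96, -2.64 and -2.61 without young animal 3, young animal 13, aged animal 3, aged animal 4 and aged animal 7). The table has a separate row named Echs1 outside the pathway, and reads of near-identical copies may be divided between them. The 9 members not tested were the omega hydroxylases Cyp4a1, Cyp4a2, Cyp4a3 and Cyp4a8, the acyl-CoA synthetases Acsbg1 and Acsbg2, Adh7, Aldh1b1 and LOC316124. Their largest count in any heart was 18 reads, and Cyp4a2 and Cyp4a8 were at 0 in every heart, where fewer than 3 reads correspond to less than 0.0985 to 0.191 CPM. Whether the Cyp4a omega hydroxylases differed was not detectable at this depth.

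Several members overlap other genes in the table, and whether counting used strand is not given in the sources used here. Cpt1b overlaps Chkb and Adh6 overlaps Adh6a on the same strand. Gcdh overlaps Syce2, Eci3 overlaps RGD1307537, LOC100911186 overlaps Paox, Acat2l1 overlaps Tcp1 and Acsbg2 overlaps LOC316124 on the opposite strand. Reads shared by these pairs make their values less certain.

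Most genes of the same process outside ko00071 were lower too. Of 25 tested genes of electron transfer, carnitine transport, malonyl-CoA control, thioesterases and peroxisomal oxidation, 18 fell and 0 rose. Of all tested genes, 19.0% were lower and 13.2% higher. The median log2 fold change of the 25 genes was -1.51. Etfb, Etfdh and Etfa, which pass electrons from the acyl-CoA dehydrogenases to ubiquinone, had log2 fold changes of -2.34, -2.22 and -1.80. Slc25a20, the carnitine-acylcarnitine exchanger, was at -1.98 on the same scale, Crat, the carnitine acetyltransferase, at -1.97, and Slc22a5, the plasma membrane carnitine carrier, at -1.07. Malonyl-CoA, the inhibitor of carnitine palmitoyltransferase 1, is made by Acacb and Acaca and removed by Mlycd. Acacb and Mlycd fell, with log2 fold changes of -3.0 and -2.09, whereas Acaca, the acetyl-CoA carboxylase of lipid synthesis, was above the young range in every aged heart, with a log2 fold change of 0.53 that missed the fold limit. Among the others, Acot13 (100, 105 and 10.4 CPM in young and 3.94, 7.24 and 5.90 CPM in aged donor hearts) had a log2 fold change of -3.65, Phyh, which starts the breakdown of phytanic acid, of -3.15, and Abcd2, a peroxisomal carrier, of -3.0. Without young animal 3, young animal 13, aged animal 3 or aged animal 7, the number of the 25 genes that fell was 9, 9, 11 and 9. Of all genes tested in those fits, 11.5%, 11.6%, 14.7% and 13.7% were lower.

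Other mitochondrial pathways of the table gave like counts, where 19.0% of all tested genes were lower. In the citrate cycle (ko00020), 24 of 28 tested genes were lower, with a median log2 fold change of -1.95, and in oxidative phosphorylation (ko00190) 78 of 105, with a median of -1.69. Neither shares a member with ko00071. Branched-chain amino acid degradation (ko00280) had 33 of 44 lower (median -1.87), and 22 of 28 without the members it shares with ko00071.

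**Figure D5:**
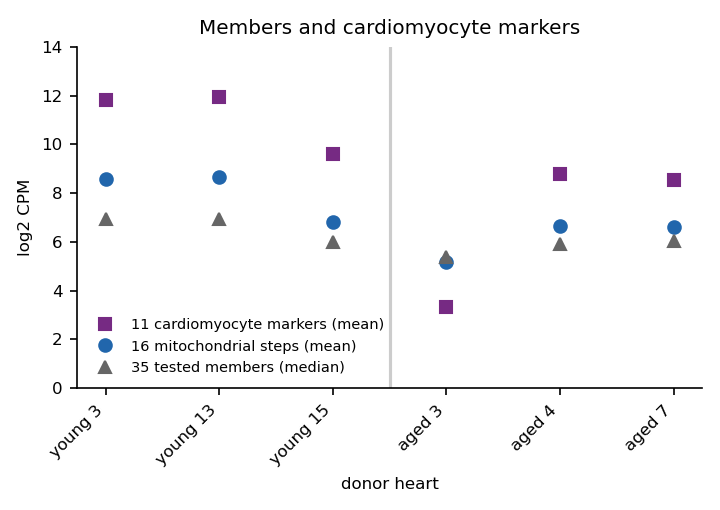
Log2 CPM in each heart, as the mean of 11 cardiomyocyte markers (purple squares), the mean of 16 genes of the carnitine shuttle and mitochondrial steps (blue circles) and the median of the 35 tested members (grey triangles). The cardiomyocyte markers reach 12.0 in young animal 13, the highest heart, and 3.33 in aged animal 3, the lowest, and the mitochondrial genes 8.67 and 5.15 in the same 2 hearts.

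As a mean, cardiomyocyte markers followed the same order of hearts. Of the 11 markers, 4 were lower by the limits, against 19.0% of all tested genes, and 7 passed in neither direction. Myh7 did not follow this order, at 868, 830 and 1039 CPM in young and 10.6, 451 and 1843 CPM in aged donor hearts. The mean log2 CPM of the markers was 11.8, 12.0 and 9.62 in young donors and 3.33, 8.80 and 8.54 in aged donors. The mean over the 16 carnitine shuttle and mitochondrial genes was 8.57, 8.67 and 6.82 in young donors and 5.15, 6.64 and 6.61 in aged donors. Both scores were highest in young animals 3 and 13, close together in young animal 15 and aged animals 4 and 7, and lowest in aged animal 3. With the marker score as a covariate in the edgeR fit, 0 members were higher and 0 lower by the same limits, against 2.66% and 3.09% of all tested genes, and the members' median log2 fold change was -0.41. In that fit, Acsl1 was at -2.17 (standard error 1.20), Cpt2 at -1.37 (0.804), Ehhadh at -1.22 (0.690) and Acsl4 at 0.69 (0.601). The score itself differs between the donor groups, so the fit removes donor age differences along with those of the markers.

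Fits with other libraries or scaling gave the following counts. Without young animal 15, 24 members were lower and 2 higher (Acsl4 and Acsl5), against 24.2% and 26.9% of all genes tested in that fit. The same numbers, 24 and 2, had an adjusted p under 0.05, against 22.6% and 25.7% of all genes, and the median log2 fold change over the members was -2.07. In that fit Acsl1 fell by 4.23 on the log2 scale (edgeR Benjamini-Hochberg adjusted p = 0.00183) and Acsl4 was at 2.48 (adjusted p = 0.0023). Without young animal 3 or young animal 13, 13 members were lower, against 11.5% and 11.6% of all genes tested in those fits. Without aged animals 3, 4 and 7 the numbers were 17, 16 and 16, against 14.7%, 15.3% and 13.7%. In all 6 fits that left out 1 heart, 12 of the 23 members past the limits passed them, and all 23 had the same sign. With both young animal 15 and aged animal 3 left out, a choice made after seeing the data, 25 were lower and 2 higher, against 26.2% and 27.2% of all genes tested in that fit, with a median of -1.79. With library totals alone in place of TMM, the median of all tested genes shifted to 0.46, and 22.8% of all tested genes were higher and 10.5% lower. The members' median was then -1.21, with 18 lower and 1 higher.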

How the data were processed

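RNA-Seq was performed on left ventricular myocardium of 6 transplanted hearts from 3 young and 3 aged donors, as polyadenylated RNA. The authors deposited raw read counts per gene and FPKM values in a single table. The submitters' processing notes name HISAT2 2.0.5, StringTie 1.3.3b, featureCounts 1.5.0-p3, DESeq2 1.16.1 and GATK 3.7, without parameters, and the build Rnor_6.0. The deposited FPKM values were checked on 133500 values against count, gene length and library total, and 1 (no member) differed.

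Groups came from the donor age in the labels, and the labels name separate animals. Testing used edgeR 4.0.16 (filterByExpr, TMM, quasi-likelihood test), limma 3.58.1 and DESeq2 1.42.0 under R 4.3.3, and shares in Python 3.11.15 with scipy 1.17.1. Standard errors were obtained as log2 fold change over the root of F. Benjamini-Hochberg adjustment ran over all 13784 tested genes. Log2 CPM used a prior count of 2. TMM factors ran from 0.733 to 1.24. The 13 genes of the mitochondrial genome took 11.9 to 21.7% of counts in young and 6.56 to 10.3% in aged donors. A count of 3 reads, which covers counting error only, corresponds to 0.0985 to 0.191 CPM.

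The members and lists were chosen with earlier results of these data known. Values in every heart were given for the 20 tested members with the highest mean FPKM and for every member past the limits. Of these, 1 member is not reported here by name, nor is a ratio that rests on it. Promoters were taken from RefSeq, by gene ID or symbol. Eci3 and Adh5, whose gene IDs belong to Eci2 and Adh4 in RefSeq, were left out. The windows of LOC100911186 and LOC316124 were kept and are those of genes that RefSeq names Echs1 and Acsbg3. LOC100911186 is among the lower members counted with a GC box. The tests were tried on simulated data. Alternatives were other scalings, count filters, tests and limits, a cardiomyocyte covariate and leaving out hearts.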

Additional observations from a re-analysis of the deposited data

How the results depend on the processing

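Leaving out 1 heart gave 13 to 24 lower and 0 to 2 higher members, 9 to 19 lower and 0 to 1 higher genes of the other beta-oxidation list, and a median log2 fold change over the members of -2.07 to -1.49. In the same fits, 11.5% to 24.2% of all tested genes were lower. With an adjusted p under 0.05 in edgeR, 0 members and 0 other genes were past the limits in either direction. With an adjusted p under 0.1, 13 members and 9 other genes were lower and 0 members higher, against 12.2% and 6.49% of all tested genes. With the cardiomyocyte score as a covariate, 0 members were higher, 0 members and 1 other gene were lower, the members' median was -0.41, and Aldh2 (0.11), Cpt1b (0.13), Acsl6 (0.97), Acsl3 (-0.27) and Cpt1c (-0.15) changed sign. With library totals alone, 11 other genes were lower and 1 higher, the members' median was -1.21, and Aldh7a1 (0.25), Aldh3a2 (0.36), Acox3 (0.22) and Adh5 (0.04) changed sign, against a shift of 0.46 in the median of all genes. With limma-voom, 2 members and 1 other gene were higher. With both young animal 15 and aged animal 3 left out, added after seeing the data, 2 members and 1 other gene were higher. Cpt1a, at 0.01 with all hearts, changed sign with DESeq2 size factors (-0.0088), with at least 1 CPM in 3 hearts (-0.0027), with the DESeq2 test (-0.0086), with limma-voom (-0.25), with both left out (-0.23) and without 1 heart (-0.18 to 0.14, with -0.18 without young animal 15 and -0.035 without aged animal 3). Acaa1a, at 0.03 with all hearts, changed sign without young animal 15 (-0.10), without aged animal 4 (-0.17) and with both left out (-0.03). Cpt1c, at 0.06 with all hearts, changed sign without young animal 13 (-0.07) or aged animal 3 (-0.003). The causes were not tested. TMM without the mitochondrial genome and no filter on low counts kept the direction and side of the limits of all 27 members that the rule names. No paired analysis was possible because the donor groups share only the animal number 3, which counts within each group. With 3 hearts a group, permutation of a single value cannot reach a p under 0.1.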
